A study of Saccharomyces cerevisiae S288C with 4 samples.

Results

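The genes described here are the 5 yeast sirtuins (*SIR2*, *HST1*, *HST2*, *HST3* and *HST4*), the silencing genes *SIR1*, *SIR3* and *SIR4*, and the nucleolar genes *FOB1* and *NET1*. They were chosen by symbol and not by a rule on their values, though with earlier results of these data known. They make 10 of the 6396 genes in the table. All 10 passed the filter on low counts.

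Sirtuins are deacetylases that consume NAD, the coenzyme that couples them to metabolism. In budding yeast, Sir2 works with Sir3 and Sir4 to silence the spare mating-type cassettes and the genes near telomeres, whereas in the nucleolus Sir2 is held on the ribosomal DNA (rDNA) by Net1 and limits recombination between the repeats. Fob1 stalls replication forks in the rDNA and thereby promotes that recombination, and the Sir2 and Fob1 pathways are among the best known regulators of replicative lifespan in this organism.

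Transcript levels of these genes were compared between WT cells (BY4741) and *tho2Δ* cells (FY254), which lack the Tho2 subunit of the THO complex, a factor that packages mRNA during transcription for export. The study asked whether the THO complex acts on lifespan through Sir2 or apart from it. It reported that loss of Tho2, or of the THO subunit Hpr1, further shortened the lifespan of *sir2Δ* cells. From this the paper proposes a pathway independent of Sir2. Transcript levels do not test that question. Both strains are *MATa* with the alleles *ura3Δ0*, *leu2Δ0*, *his3Δ1* and *met15Δ0*, and FY254 carries the KanMX4 cassette in place of *THO2*. Cells were grown in rich medium (YPD) at 30°C to mid-log phase, and total RNA was sequenced from 2 samples of each strain, labelled replicates 3 and 4.

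The libraries held between 31417222 and 36989697 counts. *THO2* was almost absent from the mutant, with raw counts of 4011 and 2457 in WT and 1 in each *tho2Δ* library. *URA3* and *MET15* had 0 counts in all 4 libraries, which allows up to 3 counts, or 0.0692 to 0.128 CPM (the count as a share of the library, with library size corrected by TMM, the edgeR method for differences in RNA composition). *LEU2*, in contrast, went against the genotype. Although both strains carry *leu2Δ0*, *LEU2* had 0 raw counts in WT replicate 3 but 2512 in WT replicate 4, and 511 and 4276 in the *tho2Δ* replicates. The source of these reads was not tested, and the changes of *HST2* and *FOB1* are therefore also given without each of these libraries. *HIS3*, of which *his3Δ1* removes only a part, was at 25.0 and 41.9 CPM in WT and at 15.9 and 15.5 CPM in *tho2Δ*. The receptors matched the labelled mating type, with *STE2*, of **a** cells, at 833 to 1158 CPM and *STE3*, of alpha cells, at 2.42 to 5.12 CPM. The alpha pheromone genes *MFALPHA1* and *MFALPHA2* were at 0.171 to 1.68 CPM. Another alpha marker, *SAG1*, went the other way, at 9.78 and 5.08 CPM in WT and 45.1 and 35.8 CPM in *tho2Δ*. The **a** pheromone gene *MFA1* was at 28.6 and 18.5 CPM in WT and 36.2 and 35.0 CPM in *tho2Δ*. CPM is not scaled by gene length. Per length (TPM), the *tho2Δ* means were 317 for *MFA1* and 20.4 for *SAG1*. Among other **a** markers, *MFA2* was at 160 and 68.7 CPM in WT and 148 and 134 CPM in *tho2Δ*. *BAR1* was at 578 and 556 CPM in WT and 695 and 602 CPM in *tho2Δ*. *STE6* was at 440 and 439 CPM in WT and 336 and 297 CPM in *tho2Δ*.

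Of the 10 genes, *HST2* was higher in *tho2Δ*, *FOB1* was lower, and the other 8, *SIR2* included, did not pass the test (quasi-likelihood test of edgeR, p adjusted by Benjamini-Hochberg over the 5890 genes tested, threshold 0.05). Thus 2 of 10 members passed, whereas 38.0% of all genes tested did. In the separate directions, 1 of 10 was higher, against 18.8% of all genes, and 1 of 10 was lower, against 19.1%. The median log2 fold change (*tho2Δ* over WT) was -0.11 for the members and 0.01 for all genes. For 9 of the 10, all but *HST3*, the CPM of both *tho2Δ* libraries lay on the same side of both WT libraries, as it did for 74.9% of all genes, so that such a separation is the usual state of a gene in these libraries. Between the WT libraries the median gene differed by 0.244 (log2), and between the *tho2Δ* libraries by 0.0919.

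**Figure D1:**
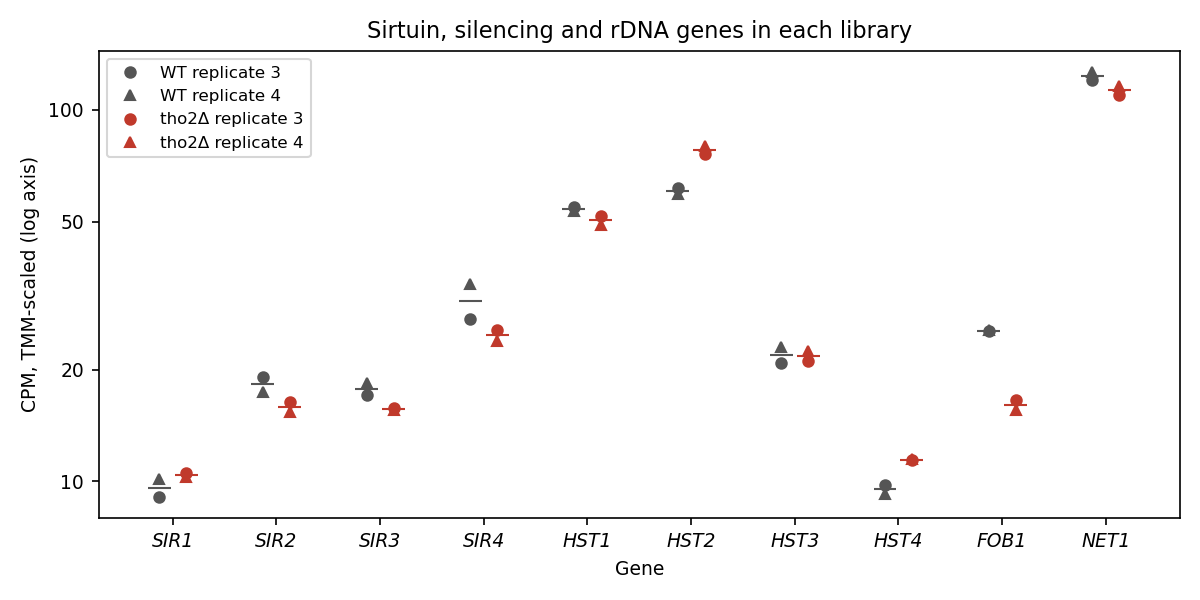
CPM (TMM-scaled, log axis) of each member in each of the 4 libraries, with WT in grey and *tho2Δ* in red, circles for replicate 3, triangles for replicate 4 and a line at the mean of each strain. *FOB1* falls from 25.3 and 25.5 CPM in WT to 16.5 and 15.6 CPM in *tho2Δ*, *HST2* lies higher in *tho2Δ*, and for the other genes the strains lie close together.

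The direction of small changes depended on the scale. The median gene had a log2 fold change of 0.01 with TMM, whereas this was 0.45 with library totals alone and 0.39 and 0.42 on the TPM scales (log2(TPM + 1) and log2(TPM + 0.1), where TPM is transcript abundance scaled by gene length). Fold changes are given on the TMM scale, that is relative to the bulk of genes. No source used here says that the replicates were separate cultures, and the p-values then measure only the spread between RNA samples, which may be technical. In RNA from a whole culture, a lower level in every cell and fewer cells with the transcript cannot be told apart.

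The sirtuins share a catalytic core, and the stretch around its glycine-rich NAD-binding motif shows how far the genes have diverged. The 30 bases of each coding strand, read from the RefSeq genome sequence of build R64, are given with the codons of the conserved motif in capitals. They are shown because all 5 genes hold this motif, and each *HST* gene differs from *SIR2* even here.
SIR2: ctgactGGTGCAGGTGTTTCAacttcatta
HST1: ctgacgGGCGCTGGAGTTTCCacttcttta
HST2: atggtgGGTGCCGGGATATCCacttcttgt
HST3: ctgactGGGGCAGGCATTTCGtgcaacgcg
HST4: gtcagcGGGGCAGGTATATCTgttgccgct
The *SIR2* stretch lies at chrIV:377639-377668 (minus strand) and the *HST1* stretch at chrXV:201235-201264 (minus strand). That of *HST2* is at chrXVI:526767-526796 (minus strand), that of *HST3* at chrXV:378390-378419 (plus strand) and that of *HST4* at chrIV:842628-842657 (plus strand). Of the 30 bases, *HST1* shares 24 with *SIR2*, *HST2* shares 18, *HST3* shares 17 and *HST4* shares 15. Over whole genes, *SIR2* and *HST1* were 72.7% identical over 974 aligned bases, and the longest exact run that any member shared with another place of the genome was between 16 and 21 bases, so that no member has a near-identical copy.

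*SIR2* (YDL042C, chromosome IV, 376757 to 378445 in build R64, minus strand), the founding NAD-dependent histone deacetylase, did not pass the test. Its level was 19.1 CPM in WT replicate 3, 17.4 CPM in WT replicate 4, 16.4 CPM in *tho2Δ* replicate 3 and 15.4 CPM in *tho2Δ* replicate 4. Both *tho2Δ* libraries were below both WT libraries, by a narrow margin. The means were 18.2 ± 1.15 CPM in WT and 15.9 ± 0.739 CPM in *tho2Δ* (SD, n = 2). The log2 fold change was -0.20 (SE 0.13, 95% interval -0.52 to 0.11, edgeR adjusted p = 0.253), and it turned to 0.23 with library totals and to 0.18 and 0.20 on the TPM scales. With library totals the 95% interval was -0.45 to 0.92 (log2). The TMM interval leaves room for a fall to 0.699 of the WT level or a rise to 1.08 times it, on that scale only. The log2 fold change was -0.27 without WT replicate 4, and -0.25 and -0.16 with *tho2Δ* replicate 3 or 4 left out, and it did not pass in any of the 14 settings tried (adjusted p between 0.0657 and 0.691 from edgeR, DESeq2 or limma).

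*HST1* (YOL068C, chromosome XV, 200368 to 201879), the closest relative of *SIR2*, acts with Sum1 and Rfm1 as a repressor of sporulation and NAD synthesis genes. Its CPM was 54.7 and 53.3 in WT and 51.8 and 49.1 in *tho2Δ*, which places the 4 libraries within a few CPM of each other. The log2 fold change was -0.10 (SE 0.11, 95% interval -0.37 to 0.17, edgeR adjusted p = 0.507), with the opposite sign with library totals (0.34) and on the TPM scales.

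*HST2* (YPL015C, chromosome XVI, 525810 to 526883), which encodes a mostly cytoplasmic sirtuin, was the one sirtuin gene that passed the test, and it was higher in *tho2Δ*. Its CPM was 61.7 and 59.4 in WT and 76.1 and 80.0 in *tho2Δ*, and its raw counts were 2077 and 1390 in WT and 2813 and 3468 in *tho2Δ*. On both scales each *tho2Δ* library was above each WT library. The log2 fold change was 0.37 (SE 0.10, 95% interval 0.11 to 0.62, edgeR adjusted p = 0.0388), a 1.29-fold rise, and 44.3% of all genes tested changed by less. The direction held in all 14 settings, but the gene passed in only 8 of them. The losses included DESeq2 (adjusted p = 0.0721), library totals (edgeR adjusted p = 0.0534) and log2(TPM + 0.1) (adjusted p = 0.0531 from limma). They also included the fits without *tho2Δ* replicate 3 (log2 fold change 0.40) or replicate 4 (0.33). Without WT replicate 4, one of the libraries with *LEU2* reads, the log2 fold change was 0.33. The spread in that fit comes from the *tho2Δ* pair alone, so a call kept there is a weak check.

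*HST3* (YOR025W, chromosome XV, 378219 to 379562) and *HST4* (YDR191W, chromosome IV, 842337 to 843449) encode the sirtuins that remove the acetyl group from lysine 56 of histone H3 after DNA replication. *HST3* had 20.8 and 23.0 CPM in WT and 21.1 and 22.5 CPM in *tho2Δ*. The *tho2Δ* values fell between the WT values, and the log2 fold change was -0.01 (SE 0.12, 95% interval -0.31 to 0.29, edgeR adjusted p = 0.964), with a sign that differed between settings. For *HST4* the CPM was 9.75 and 9.27 in WT and 11.4 and 11.5 in *tho2Δ*. Both *tho2Δ* libraries were higher and nearly equal, yet the log2 fold change of 0.27 (SE 0.14, 95% interval -0.08 to 0.62) did not pass (edgeR adjusted p = 0.182). *HST4* was above 0 in all 14 settings and passed in 0 of them, with adjusted p between 0.106 and 0.577 from edgeR, DESeq2 or limma.

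Among the silencing genes, *SIR4* (YDR227W, chromosome IV, 917571 to 921647), the scaffold that joins Sir2 to Sir3, had the largest difference between strains, though it did not pass. Its CPM was 27.3 and 34.0 in WT and 25.6 and 23.9 in *tho2Δ*. The strains did not overlap, but the WT libraries lay further apart from each other than WT replicate 3 lay from *tho2Δ* replicate 3. The log2 fold change was -0.31 (SE 0.15, 95% interval -0.68 to 0.07, edgeR adjusted p = 0.156) and rose above 0 with library totals (0.16) and on the TPM scales. Leaving out 1 library decided the call, since without WT replicate 3 it was -0.49 (edgeR adjusted p = 0.00318), with only WT replicate 4 left in that strain, and without WT replicate 4 it was -0.15 (edgeR adjusted p = 0.22).

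*SIR3* (YLR442C, chromosome XII, 1019315 to 1022251), whose protein binds deacetylated nucleosomes and spreads along silent chromatin, had 17.1 and 18.4 CPM in WT and 15.7 and 15.5 CPM in *tho2Δ*. The difference resembled that of *SIR2* in size, with a log2 fold change of -0.18 (SE 0.12, 95% interval -0.49 to 0.12, edgeR adjusted p = 0.28), and a value above 0 with library totals (0.27) and on the TPM scales. *SIR1* (YKR101W, chromosome XI, 640540 to 642504), which helps to establish silencing at the mating cassettes, was the least abundant member per length in WT. It had 9.10 and 10.1 CPM in WT and 10.6 and 10.3 CPM in *tho2Δ*, and its log2 fold change was 0.12 (SE 0.15, 95% interval -0.25 to 0.49, edgeR adjusted p = 0.554). The strains differed by less than the WT libraries did between themselves.

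Of the rDNA genes, *FOB1* (YDR110W, chromosome IV, 676102 to 677802, plus strand), which encodes the replication fork barrier protein, showed the largest change of the 10 members. Its CPM was 25.3 and 25.5 in WT and 16.5 and 15.6 in *tho2Δ*. On this scale, where WT replicate 4 has a TMM factor of 0.723, the replicates nearly coincided within each strain, with a wide gap between the strains. In TPM, the gene was at 12.8 and 9.70 in WT and at 9.51 and 9.13 in *tho2Δ*, so that the WT replicates lay apart and the gap was narrow. Its log2 fold change was -0.66 (SE 0.11, 95% interval -0.95 to -0.38, edgeR adjusted p = 0.0095), so that *tho2Δ* cells held 0.632 of the WT level, and 67.5% of all genes changed by less. The raw counts, 852 and 597 in WT and 610 and 677 in *tho2Δ*, overlapped between the strains, so that the fall is one relative to the other genes of each library. *FOB1* was below 0 in all 14 settings and passed in 9. It missed the threshold with library totals (log2 fold change -0.22, edgeR adjusted p = 0.573), on the TPM scales (-0.24 and -0.26, adjusted p = 0.442 and 0.441 from limma), and without *tho2Δ* replicate 3 (-0.70, edgeR adjusted p = 0.108) or replicate 4 (-0.62, edgeR adjusted p = 0.143). Measured from the median of all genes, it lay between -0.72 and -0.62 in every setting, and without WT replicate 4 its log2 fold change was -0.67.

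*NET1* (YJL076W, chromosome X, 295245 to 298814), the nucleolar protein that anchors Sir2 and the phosphatase Cdc14 at the rDNA, had 120 and 127 CPM in WT and 109 and 116 CPM in *tho2Δ*. Both *tho2Δ* libraries were lower, with a gap to WT smaller than that between replicates. The log2 fold change was -0.13 (SE 0.10, 95% interval -0.38 to 0.12, edgeR adjusted p = 0.347), and above 0 with library totals (0.32) and on the TPM scales. *NET1* shares 355 bases with the open reading frame YJL075C (*APQ13*) on the opposite strand, and no source used here gives the strand setting of the counting, so reads in this stretch cannot be told apart. No other member overlaps an annotated gene.

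**Figure D2:**
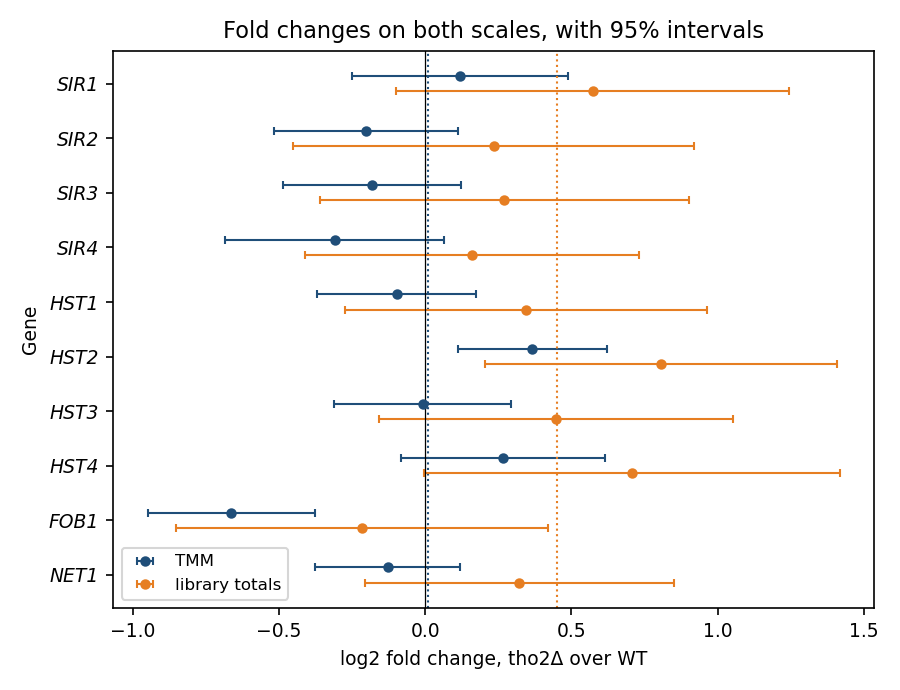
Log2 fold change of each member (*tho2Δ* over WT) with its 95% interval from edgeR's quasi-likelihood test, in blue with TMM and in orange with library totals, with dotted lines at the median of all genes on each scale (0.01 and 0.45). Every member moves to the right by nearly the same amount, and *FOB1* (left of the dotted line) and *HST2* (right of it) keep their places relative to the median.

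Per length, *HST2* was the most abundant of these transcripts in both strains. Its TPM was 42.7 ± 9.77 in WT and 71.8 ± 3.24 in *tho2Δ* (SD, n = 2). In WT, *HST1* (27.0 ± 5.92) and *NET1* (26.0 ± 4.32) followed, and their libraries overlapped each other. The middle of the WT order, *HST3* (12.2 ± 1.63), *FOB1* (11.3 ± 2.22), *SIR2* (8.20 ± 2.16), *HST4* (6.47 ± 1.52) and *SIR4* (5.58 ± 0.266 TPM), could not be ordered beyond the spread between neighbors, and *SIR3* (4.54 ± 0.677) and *SIR1* (3.66 ± 0.467 TPM) were last. In *tho2Δ*, *FOB1* (9.32 ± 0.271) lay level with *SIR2* (9.29 ± 0.331 TPM), and *HST4* (10.2 ± 0.178 TPM) lay above both. *SIR1* and *SIR3*, at 5.24 ± 0.0445 and 5.26 ± 0.00174 TPM, were also level there. Among all genes of the table, *SIR2* in WT stood above 33.5% of genes, *SIR1* above 19.6% and *HST2* above 75.9%.

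Ratios of TPM within a library do not depend on the scale between libraries. The ratio of *FOB1* to *SIR2* was 1.32 and 1.45 in WT and 0.999 and 1.01 in *tho2Δ*, a difference of -0.46 on the log2 scale with no overlap between strains. The ratio of *HST1* to *SIR2* was 3.21 and 3.42 in WT and 3.53 and 3.57 in *tho2Δ*, and that of *HST3* to *HST4* was 1.77 and 2.05 in WT and 1.53 and 1.62 in *tho2Δ*, again without overlap. In contrast, the ratios of *SIR3*, *SIR4* and *NET1* to *SIR2* overlapped between the strains, as for *SIR3* with 0.516 and 0.608 in WT and 0.552 and 0.581 in *tho2Δ*. With 2 libraries against 2, a two-sided exact permutation test cannot give a p below 0.333, and none is given for these ratios.

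The 250 bases before each coding start were searched on both strands for short promoter motifs. The stress response element (AGGGG), to which the stress factors Msn2 and Msn4 bind, was found in 5 of the 10 members (*SIR3*, *SIR4*, *HST2*, *HST4* and *FOB1*), and in 18.8% of 6002 promoters. Both genes that passed the test hold it, in opposite directions of change. The PAC motif (GATGAG), common before genes of ribosome biogenesis, was found before *SIR2* and *FOB1* and in 17.0% of promoters. These windows of 30 bases are shown for *HST2*, *FOB1* and *SIR2*, since they bear on the members with a change and on *SIR2*, with the motif in capitals (on the strand of the gene, so that a motif of the other strand appears as its complement).
HST2 stress response element: ctacgcagaggcCCCCTgcctgcgtgcttt
FOB1 stress response element: aattaagccttcAGGGGggagaacaattta
FOB1 PAC: gcgaggtgattcCTCATCgcatgtattcat
SIR2 PAC: aaccatttttccCTCATCggcacattaaag
In build R64 the *HST2* window lies at chrXVI:527066-527095 (minus strand), the *FOB1* windows at chrIV:676035-676064 and chrIV:675992-676021 (plus strand), and the *SIR2* window at chrIV:378450-378479 (minus strand). The site in *HST2* begins 200 bases before the coding start, whereas the stress response element of *FOB1* begins 55 bases before it. Of the other motifs, the RRPE core (AAAATTTT, 8.65% of promoters) was found before *HST4*. The Abf1 site (TCA and ACG with 6 unspecified bases between them, 12.9%) was found before *HST1* and *HST3*, and the MluI cell cycle box (ACGCGT, 2.90%) before 0 members. A match of letters is not evidence of binding, and none of these motifs overlap each other in the windows shown.

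Beyond the 10 members, 9 lists of genes that act with them were read from the same fit, with 186 genes tested in all. Of these, 22 were higher and 51 lower in *tho2Δ*, to be read, as for each list below, against 18.8% higher and 19.1% lower over all genes. The number of lower genes fell to 6 with library totals and to 8 on each TPM scale, and to 7 and 6 without *tho2Δ* replicate 3 or 4, while the number of higher genes was between 20 and 24 on every scale and was 8 when either *tho2Δ* library was left out. Without WT replicate 4, the spread in the fit comes from the *tho2Δ* pair alone. That pair lay closer together than the WT pair (median log2 difference 0.0919 against 0.244). Calls kept in that fit are therefore a weak check on the *LEU2* reads. The levels of single genes below are CPM.

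Of 31 recruiters and cofactors of the Sir complex, 9 were lower and 1 was higher, with a median log2 fold change of -0.35, which became 0.10 with library totals. The lower genes included *ORC1*, the origin recognition subunit from whose ancestor *SIR3* also descends (27.9 and 31.1 in WT, 17.5 and 16.5 in *tho2Δ*), and *SAS5* (22.1 and 24.7 in WT, 13.9 and 12.9 in *tho2Δ*) and *SAS2* (18.4 and 16.1 in WT, 10.3 and 10.8 in *tho2Δ*), which encode parts of the acetyltransferase whose mark Sir2 removes. *MSI1*, a subunit of chromatin assembly factor CAF-I, was at 32.7 and 29.4 in WT and 19.5 and 20.1 in *tho2Δ*. These 4 calls were lost with library totals, on the TPM scales and when either *tho2Δ* library was left out. The single higher gene, named for that reason after its value was seen, was *YKU70*, which encodes a subunit of the Ku end-binding complex (log2 fold change 0.72, edgeR adjusted p = 0.0186), which did not pass once *tho2Δ* replicate 3 (edgeR adjusted p = 0.146) or replicate 4 (edgeR adjusted p = 0.1) was left out.

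The NAD genes moved in both directions. Of 26 genes of NAD salvage, synthesis and transport, 4 were higher and 9 lower (median log2 fold change -0.17, and 0.28 with library totals). *PNC1*, the nicotinamidase that clears nicotinamide, an inhibitor of sirtuins, rose from 222 and 192 in WT to 806 and 728 in *tho2Δ* (log2 fold change 1.89, edgeR adjusted p = 0.00185). *NRT1*, a nicotinamide riboside transporter, fell from 58.4 and 59.8 to 17.6 and 18.7 (log2 fold change -1.70, edgeR adjusted p = 0.00142), and *BNA4*, an enzyme of NAD synthesis from tryptophan, fell from 76.9 and 86.3 to 28.8 and 28.7 (edgeR adjusted p = 0.00183). These 3 calls held in all 14 settings. *BNA7*, another gene of that route, had a log2 fold change of -1.09, and its call was lost with library totals, on both TPM scales and without *tho2Δ* replicate 4.

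Of 14 tested genes of the Hst1 complex and its repressed targets, 1 was higher and 5 were lower, with a median of -0.47 that became -0.01 with library totals. *BNA4*, *BNA5* and *TNA1*, targets in NAD synthesis and uptake, were all lower, and the calls of *BNA5* (log2 fold change -0.71) and *TNA1* (-0.52) were lost with library totals, on the TPM scales and when either *tho2Δ* library was left out. The sporulation septin gene *SPR28* was higher but scarce, with 6 and 3 raw counts in WT and 33 and 49 in *tho2Δ*, and its call was lost when either *tho2Δ* library was left out. Among the targets named, only this scarce gene was higher. With a minimum mean count of 50, 0 genes of the list were higher.

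For the substrate of *HST3* and *HST4*, 17 genes of histone H3 lysine 56 acetylation and its readers were tested, of which 0 were higher and 6 lower (median -0.26, and 0.19 with library totals, where 0 were lower). The histone genes *HHT1* (274 and 288 in WT, 207 and 206 in *tho2Δ*) and *HHF2* (201 and 244 in WT, 130 and 137 in *tho2Δ*) were among them, and *HHF2* is uncertain, because it has a near-identical copy. *RAD9*, a checkpoint adaptor, and *CTF18*, of a clamp loader, had log2 fold changes of -0.61 and -0.49. All 4 calls were lost with library totals, on the TPM scales and when either *tho2Δ* library was left out, where 0 genes of the list were lower.

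Of 28 partners of Net1 and Fob1 at the rDNA, 8 were lower and 1 was higher (median -0.07, and 0.38 with library totals). *NUR1*, which tethers the rDNA to the nuclear envelope, rose from 11.1 and 10.5 to 20.2 and 19.3 (log2 fold change 0.86, edgeR adjusted p = 0.00571). *RRM3*, a helicase that helps forks past barriers such as that of Fob1, went the other way (34.7 and 38.1 in WT, 22.1 and 24.5 in *tho2Δ*), as did *MRC1* of the replication fork (log2 fold change -0.71) and *RRN6*, an RNA polymerase I initiation factor (log2 fold change -0.61). The calls of *RRM3*, *MRC1* and *RRN6* were lost with library totals and on the TPM scales, and those of all 4 when either *tho2Δ* library was left out.

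RNA polymerase I, which transcribes the rDNA, gave the lowest median of the 9 lists. Of its 14 subunit genes, 11 were lower and 0 higher, against 19.1% lower over all genes, and the median log2 fold change was -0.93. The catalytic subunit gene *RPA190* fell from 833 and 880 to 348 and 345, its partner *RPA135* had a log2 fold change of -1.51, and *RPA43* fell from 71.9 and 81.3 to 29.4 and 25.7 (log2 fold change -1.48, edgeR adjusted p = 0.00201). *RPA49* had a log2 fold change of -1.16. The call of *RPA43* held in all 14 settings, while that of *RPA49* was lost with library totals and those of *RPA190* and *RPA135* when either *tho2Δ* library was left out. With library totals the median was -0.48 and 3 genes were lower, and without *tho2Δ* replicate 3 or replicate 4 only 2 were, so that the median stayed below 0 and the number of calls did not hold.

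Of 40 other lifespan genes, 10 were higher and 5 lower (median 0.27, and 0.71 with library totals). *TPK2*, a catalytic subunit of protein kinase A, rose from 40.7 and 44.2 to 89.9 and 103. *ATG8*, required for autophagy, had a log2 fold change of 1.47. *RAS1*, a GTPase upstream of protein kinase A, had one of -1.19. The calls of *TPK2* and *ATG8* held in all 14 settings, and that of *RAS1* was lost with library totals (edgeR adjusted p = 0.0714).

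**Figure D3:**
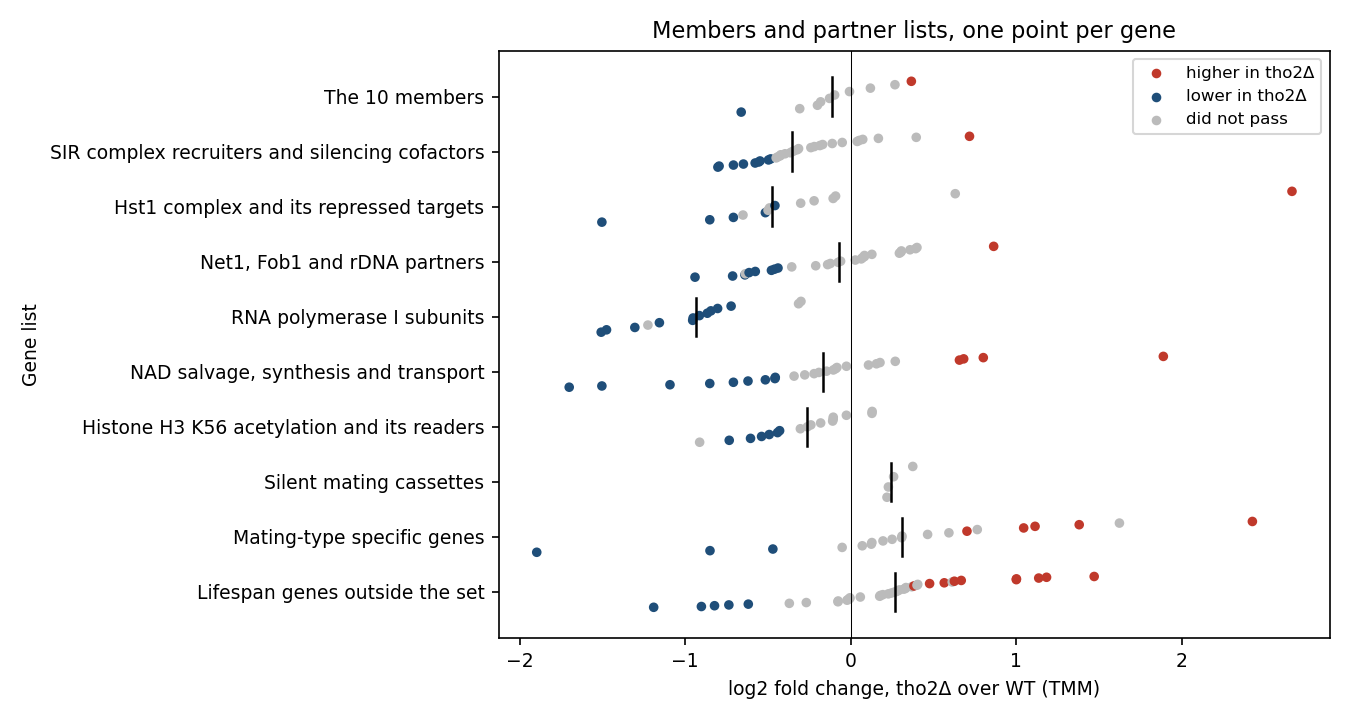
Log2 fold change (*tho2Δ* over WT, TMM) of each tested gene of the 10 members and the 9 partner lists, 1 point per gene, in red where higher, blue where lower and grey where the test was not passed, with a black line at each list's median. The members center near 0 (median -0.11), whereas the RNA polymerase I genes all lie left of 0 (median -0.93).

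The silent mating cassettes, where Sir proteins act, showed no gene that passed. *HMRA1* had 608 and 302 raw counts in WT and 849 and 752 in *tho2Δ*, and its log2 fold change was 0.37 (edgeR adjusted p = 0.233), and passed only without WT replicate 3. In a *MATa* strain the expressed **a**1 gene and *HMRA1* share their sequence, so these reads cannot be assigned to the silent copy. *HMLALPHA1*, in contrast, has no expressed copy in such a strain. It had 9 and 3 raw counts in WT and 7 and 5 in *tho2Δ*, and *MATALPHA1*, its near-identical copy in the reference, had 1 and 0 in WT and 1 in each *tho2Δ* library. These were too few for the test, so a small change in silencing was not detectable at this depth. *HMLALPHA2*, *HMRA2* and *MATALPHA2*, which share sequence among themselves, had log2 fold changes of 0.23, 0.26 and 0.22 and adjusted p of 0.483, 0.45 and 0.497 (edgeR). Because of the shared sequence, these reads cannot be assigned to a silent copy either.

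Of 20 mating-type specific genes, 5 were higher and 3 lower (median 0.31, and 0.71 with library totals). *SAG1*, the alpha agglutinin, and *AGA2*, a subunit of the **a** agglutinin, both rose, from 9.78 and 5.08 to 45.1 and 35.8 and from 95.2 and 71.7 to 236 and 199. The pheromone pathway scaffold *STE5* had a log2 fold change of 1.04, and *HO*, the mating-type switching endonuclease, one of -1.90. These 4 calls held in all 14 settings. *MFALPHA1* and *MFALPHA2*, which encode the alpha pheromone, had between 4 and 63 raw counts in every library and did not pass (edgeR adjusted p = 0.283 and 0.0958).

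Genes near chromosome ends, the other natural site of Sir silencing, were more often higher than lower. Within 5 kb of an end, 21 of 42 tested genes were higher and 3 lower (median log2 fold change 1.03). From 5 to 10 kb the numbers were 20 and 6 of 47, from 10 to 15 kb 9 and 4 of 52, and from 15 to 20 kb 14 and 3 of 59. Together this is 64 higher and 16 lower of 200, against 1038 and 1106 of 5598 beyond 20 kb. Many of these genes have near-identical copies, among which reads can be split. Of the 115 without one, 33 were higher and 11 lower, with 5 and 2 of only 10 within 5 kb. The numbers within 20 kb were 71 and 2 with library totals, 76 and 38 without WT replicate 3 and 86 and 24 without WT replicate 4, and they fell to 22 and 3 without *tho2Δ* replicate 3 and to 22 and 4 without replicate 4. None of the 10 members lies within 20 kb of an end, *SIR1* being the nearest at 24.3 kb.

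**Figure D4:**
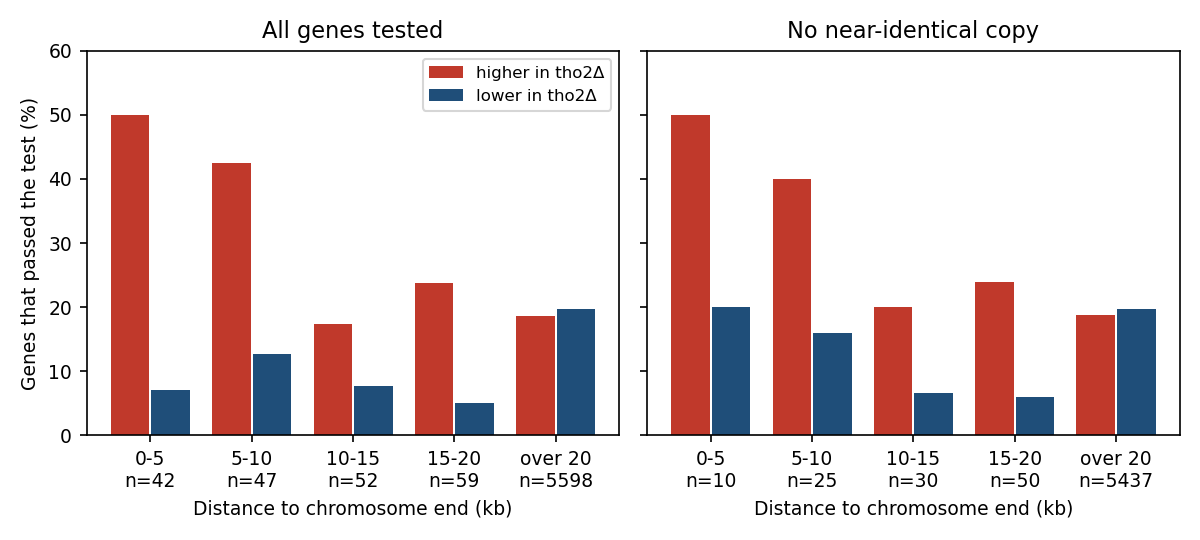
Share of tested genes that were higher (red) or lower (blue) in *tho2Δ*, in %, by distance to the nearer chromosome end in kb, for all genes tested (left) and for genes without a near-identical copy (right), with the number tested under each bin. Within 5 kb, 21 of 42 genes were higher and 3 lower, whereas beyond 20 kb the shares were 18.5% and 19.8%.

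The annotated genes beside the members were read from the same fit. Next to *FOB1*, *YDR109C* had a log2 fold change of 0.05 and *ALT2*, an alanine transaminase paralog, one of -0.57 (edgeR adjusted p = 0.792 and 0.0562). Next to *SIR2*, neither *PRP11* (log2 fold change -0.07) nor *NAT1* (-0.22) passed. Both neighbors of *HST2* were higher, as *HST2* was and as were 18.8% of all genes tested. *SWI1*, a chromatin remodeler subunit, rose from 23.2 and 15.4 to 34.6 and 41.0 CPM (edgeR adjusted p = 0.0229), and *CIP1*, a cyclin-dependent kinase inhibitor, from 12.5 and 8.92 to 19.0 and 23.5 CPM (edgeR adjusted p = 0.0181). Beside *SIR1*, *SKG1* passed with a log2 fold change of 0.42, and *FLO10*, a flocculin, rose from raw counts of 202 and 88 in WT to 447 and 684 in *tho2Δ* (edgeR adjusted p = 0.0111). Beside *SIR4*, *ADK1* had one of -1.02 and *PCF11* one of 0.73, and beside *SIR3* and *NET1*, *RPS1A* and *SMC3* had -1.54 and -0.88, all 4 past the threshold. The neighbors of *HST1* (*NUF2* and *RTG1*), *HST3* (*AHC1* and *BUB3*) and *HST4* (*RVB1* and *NUP42*), with *ECM7* beside *SIR3* and *ICS3* beside *NET1*, did not pass. All calls but that of *FLO10* were lost without *tho2Δ* replicate 3, and every call was lost without *tho2Δ* replicate 4. The calls of *ADK1* and *SMC3* were also lost with library totals and on the TPM scales, that of *SWI1* with log2(TPM + 0.1), and that of *SKG1* with DESeq2, with size factors by median of ratios and with TMM computed without ribosomal protein genes.

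The genes most like *SIR2* over the 4 libraries (Euclidean distance of mean-centered log2 CPM) were *YGR117C*, *RAD5* and *ASF1*, at distances of 0.0288, 0.0324 and 0.0347. Those most like *FOB1* were *RRP46*, *YML096W* and *SLP1*, at 0.0373, 0.0401 and 0.0408. With 4 libraries such likeness is common, since 73 genes lay within 0.1 of *SIR2* and 39 within 0.1 of *FOB1*.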

How the data were processed

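The authors deposited 1 table with raw read counts, FPKM and TPM for each gene. Counts and TPM of the 4 libraries were used, and 4 columns of FPKM were left out. The submitters' notes on processing name bcl2fastq 2.20.0, Trimmomatic, StringTie 1.3.4d, HISAT2 2.1.0 and build R64. What each did, which annotation was used and whether counting used strand are not stated in the sources used here. The paper's methods describe phenol extraction, while the labels name a column kit. The authors' counts are whole numbers without normalization, and the deposited TPM values are scaled by length. Of 6396 genes, locus tags matched 5995 to the RefSeq annotation of R64 and symbols matched 89, while 312 had no match. There were 3 empty lines.

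Counts were tested with edgeR 4.0.16 in R 4.3.3 by the quasi-likelihood test, with TMM scaling, filterByExpr, genotype as the only term, and p-values adjusted by Benjamini-Hochberg over 5890 genes (threshold 0.05). The standard error follows from the test (log2 fold change over the root of F). WT replicates 3 and 4 held 33543267 and 32401027 counts, *tho2Δ* replicates 3 and 4 held 31417222 and 36989697, and a count of 3 equals 0.0892, 0.128, 0.0812 and 0.0692 CPM in this order. Limits on counts cover counting error only. Replicates differed beyond sampling noise, with a median chi-square per gene of 41.6 in WT and 2.47 in *tho2Δ*, so each library was counted once.

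The alternatives were size factors by median of ratios, library totals, TMM computed without ribosomal protein genes, DESeq2 1.42.0, limma 3.58.1 on log2(TPM + 1) or log2(TPM + 0.1) where the mean TPM was 1 or more, no filter, a minimum mean count of 50, a term for the replicate number, and each library left out in turn, with the lone library of a strain assumed to vary like the other strain. After the data were seen, chromosome-end genes were also counted without near-identical copies (BLAST 2.17.0, identity of 95% or more across 50% or more of the gene).

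The members, lists and tests were chosen with earlier results of these data known. The genes named are the members and *THO2*, the strain and mating-type markers, all silent cassette genes, in each other list the 4 genes of smallest p, the genes beside each member, and the 3 genes most like *SIR2* and *FOB1*. A gene and a motif that these rules cover are not reported here. On counts simulated for this comparison (5882 genes tested), edgeR called 68 of 68 genes with a 4-fold change, 51 of 72 with a 2-fold change and 12 of 60 with a 1.5-fold change, with 3 false calls. The simulation gave all libraries the same spread and changed few genes, in random directions. The real libraries differ in both respects, so these rates need not hold for them. Python 3.11.15, numpy 2.4.6, pandas 2.3.3, scipy 1.17.1 and matplotlib 3.10.9 made the tables and plots.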

Additional observations from a re-analysis of the deposited data

How the results depend on the processing

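Of the 130 alternative values of the members (13 settings for 10 genes), 97 kept both their direction and their side of the threshold, 11 lost a call, 1 gained one and 21 changed sign. With library totals, log2(TPM + 1) and log2(TPM + 0.1), in this order, the log2 fold changes that turned from below to above 0 were 0.23, 0.18 and 0.20 for *SIR2*, 0.27, 0.18 and 0.22 for *SIR3*, 0.16, 0.086 and 0.10 for *SIR4*, 0.34, 0.29 and 0.30 for *HST1*, 0.45, 0.37 and 0.39 for *HST3*, and 0.32, 0.26 and 0.27 for *NET1*. *HST3* was also above 0 with a mean count of at least 50 (0.0039), and between -0.10 and 0.056 as each library was left out. The number of members higher was 0 rather than 1 with library totals, DESeq2, log2(TPM + 0.1) and the replicate block, and 0 to 1 as each library was left out. The number lower was 0 rather than 1 with library totals and on both TPM scales, and 0 to 2 as each library was left out. Over all genes tested, 303, 348 and 335 rather than 1127 were lower with library totals, log2(TPM + 1) and log2(TPM + 0.1), and leaving out libraries gave 307 to 1790 higher and 200 to 1847 lower. In the lists, 6, 8 and 8 rather than 51 genes were lower on those 3 scales, and leaving out libraries gave 8 to 45 higher and 6 to 70 lower. The median log2 fold change of all genes was 0.39 to 0.45 on those scales, against 0.01. Where a library is left out, 1 library stands for its strain. No pairing by replicate number was seen (correlation of same-numbered deviations 0.00146 over 5890 genes). This cannot settle whether same-numbered libraries shared a culture or day. With the replicate block *FOB1* kept its call (edgeR adjusted p = 0.0116), whereas *HST2* lost it (edgeR adjusted p = 0.0768), as did *HHT1* (0.075) and *SKG1* (0.0638) outside the set. Every member had at least 217 counts in every library, whereas *HMLALPHA1* and *MATALPHA1* had at most 9 and were not tested. Whether more depth would change a call was not tested.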
